A study of Mus musculus with 6 samples.

Results

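This section describes the genes for calcium channels, intracellular calcium stores and TRP channels in the antrum, the muscular outlet region of the stomach, of young mice. The set was defined by gene symbol alone: voltage-gated calcium channel subunits (symbols beginning Cacn, except Cacna1h), TRPC, TRPV and TRPM channels, ryanodine receptors, inositol trisphosphate receptors, the calcium pumps of the Atp2a and Atp2b families, and the store-operated entry genes Stim and Orai. It holds 50 genes read by 84 probes, of 15123 named genes and 30649 features (named genes plus unnamed probes) on the array. One of the 50, Trpc4ap, is an adaptor that the symbol rule takes in and is neither a channel nor a pump. Of 64 genes of these families looked for by name, 49 were measured. The other 15, among them Itpr1, Itpr3, Ryr3, Cacna1i, Cacna1s, Cacnb3, Atp2b1 and Atp2b4, were not analysed here.

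The mutant animals were KitK641E:Neo/K641E:Neo, homozygous for a germline oncogenic change in the gene for the Kit receptor, a model of gastrointestinal stromal tumours, and were compared with KitWT/WT littermates. All were taken at postnatal day 14, and nothing in the labels separates the cell types of the antral piece. There were 3 littermate pairs, each hybridised on 2 arrays of 70-base probes with the Cy5 and Cy3 dyes exchanged, so the 6 arrays give 3 replicates. The labels give no sex for the animals.

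Calcium enters the muscle and pacemaker cells of the gut wall through voltage-gated channels, which open on depolarisation, and through TRP channels and Orai pores, which answer to receptors, stretch, temperature or emptied stores. Ryanodine and inositol trisphosphate receptors release it from the endoplasmic reticulum, SERCA pumps return it there, and plasma membrane pumps expel it. Interstitial cells of Cajal, the Kit-dependent pacemakers, set the slow waves of the stomach through store release and T-type channels, and smooth muscle contracts on entry through L-type channels. Since the samples are bulk tissue, fewer cells of a type and less RNA per cell cannot be told apart.

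All values below are given as log2 of mutant over wild type, a likely direction, with base 2 inferred from the size of the deposited values. The direction rests on reading the ratios as Cy5 over Cy3 and on Spry4 and Tpbg. The paper on these mice names both in its title as up-regulated, and under that reading their means were 1.38 and 1.96, which is no independent evidence. Pair 1 stood apart from the others in several tissues' markers. The median over 9 liver markers was -0.22, 2.61 and 1.75 in pairs 1, 2 and 3, and that over 6 exocrine pancreas markers was -2.49, -0.12 and 0.048. The Y-linked gene Eif2s3y had -0.025, -0.045 and -5.06 in the same order. On the exchanged arrays of pair 3 it had -5.45 and -4.66, as a female mutant beside a male wild type would give. In that pair an effect of genotype and one of sex therefore cannot be told apart. Kit itself had -0.022, 1.89 and 0.81 in pairs 1, 2 and 3. Because a ratio carries no level, the antral identity of the pieces could not be checked against marker levels.

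Most of these genes had mean log2 ratios near 0 between mutant and wild-type antrum. The mean over pairs lay within 0.1 of 0 for 38 of the 50 genes, against 74.1% of all features, and within 0.2 for 47, against 90% of all features. The median over the 50 was -0.0052, against 0.0035 over all features, with 23 genes above 0 and 27 below. By pair, the median over the 50 was -0.018, 0.0043 and 0.0010 in pairs 1, 2 and 3, and the SD among them was 0.18, 0.23 and 0.12, against 0.22, 0.28 and 0.27 among all features. None passed an adjusted p of 0.05 in limma's test over all features (lowest adjusted p 0.923), where 0.00653% of features were called higher and 0% lower. At an unadjusted 0.05, 1 gene was higher, Atp2a3, against 2.74% of all features, and 1 was lower, Ryr2, against 2.16%. These shares are near the background.

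The 95% interval of the mean, from limma over 3 pairs, lay wholly between -1 and 1 (a 2-fold difference on either side) for 49 of the 50 genes, against 96.6% of all features. The exception was Trpc4, whose interval reached 1.17. The interval lay between -0.5 and 0.5 for 42 of the 50 genes, a count for which the share of all features was not computed. These bounds are for the ratios of whole tissue and not for any single cell type. Signal over background was not used here, so which of these probes read RNA above background is not known. For a probe near background, a ratio near 0 does not by itself show unchanged RNA.

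**Figure D1:**
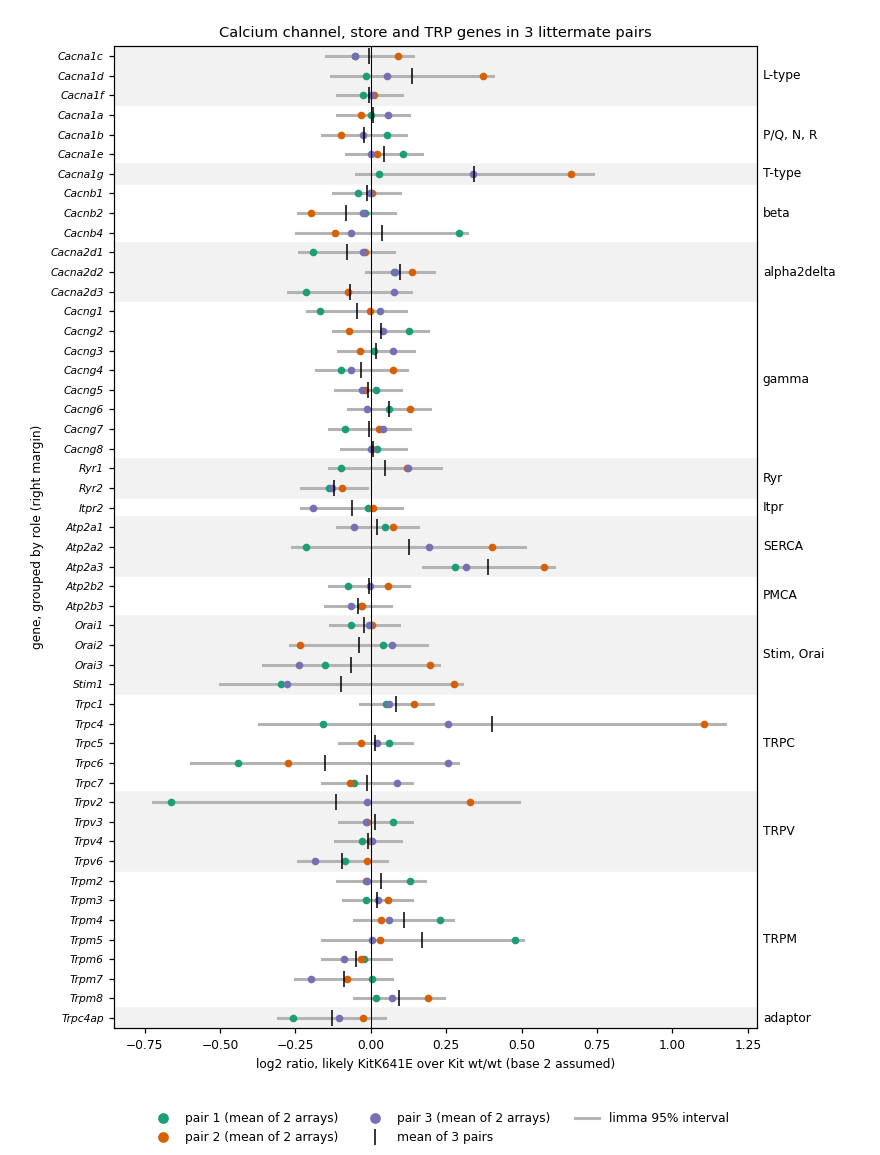
Log2 ratio, likely KitK641E over Kit wt/wt, of each of the 50 genes by role. Coloured points are the 3 pair means (2 arrays each), the black tick is the mean and the grey bar limma's 95% interval (n = 3 pairs). Most points lie near 0, and the widest bars belong to Trpc4 (-0.37 to 1.17) and Trpv2 (-0.72 to 0.49).

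Promoter windows from RefSeq (build GRCm38.p6) were found for 43 of the 50 genes. The 3 below belong to genes described in detail, namely Trpc4 with the highest mean, Atp2a3 with the lowest p and Trpc6 with the lowest mean. Each is the 250 bases before the annotated start on the plus strand, 5′ to 3′, at chr3:54155807-54156056, chr11:72960919-72961168 and chr9:8543892-8544141. Capitals mark matches on either strand to the TATA box (TATAAA), an NFAT-type core (GGAAAA), an ETS core (CCGGAAG) or the CArG box, the element bound by serum response factor in smooth muscle genes.
Trpc4: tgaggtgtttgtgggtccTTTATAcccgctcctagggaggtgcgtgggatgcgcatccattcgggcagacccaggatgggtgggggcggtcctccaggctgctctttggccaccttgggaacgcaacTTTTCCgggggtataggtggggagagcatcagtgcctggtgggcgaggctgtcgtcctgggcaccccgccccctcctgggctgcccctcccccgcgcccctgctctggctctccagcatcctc
Atp2a3: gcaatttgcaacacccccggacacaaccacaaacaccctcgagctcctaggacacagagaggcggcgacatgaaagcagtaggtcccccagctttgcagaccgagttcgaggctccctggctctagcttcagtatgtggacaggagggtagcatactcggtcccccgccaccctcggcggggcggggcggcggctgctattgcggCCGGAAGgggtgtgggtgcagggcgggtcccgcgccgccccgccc
Trpc6: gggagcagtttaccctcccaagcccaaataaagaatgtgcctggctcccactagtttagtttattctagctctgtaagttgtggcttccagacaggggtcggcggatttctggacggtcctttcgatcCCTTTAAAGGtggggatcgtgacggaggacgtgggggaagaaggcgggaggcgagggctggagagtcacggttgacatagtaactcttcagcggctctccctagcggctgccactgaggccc

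The ETS core of Atp2a3, whose first base lies 45 bases before the start, was the 1 match to that motif in the 56 windows of the set, each running from 250 bases before the start to 50 after it. Over the 32851 such windows searched, 8.86% hold it. These do not cover every chromosome and are called all windows below. The CArG box of Trpc6, 122 bases before the start, was likewise the 1 match in the set, and 1.63% of all windows hold that motif. The Trpc4 window held a TATA match 232 bases and an NFAT-type match 123 bases before the start, both on the minus strand. NFAT-type cores occurred in 7 of the 56 windows and TATA matches in 5, against 23.4% and 13.6% of all windows. Both motifs hold more A and T than G and C, and the median GC content was 59% in the set and 52.7% in all windows. The part of GC content in these counts was not tested. These matches describe letters only. The ETS and NFAT-type motifs share the letters GGAA but no match of one overlapped a match of the other in the printed windows.

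Among the pore-forming subunits, the T-type gene Cacna1g had the highest values. Cacna1g encodes CaV3.1, a low-voltage-activated channel. Its ratios were -0.018 and 0.069 on the exchanged arrays of pair 1, 0.69 and 0.64 on those of pair 2, and 0.30 and 0.38 on those of pair 3. Pair 2 was highest, pair 1 was near 0, and the dye-exchanged arrays of each pair differed by less than the pairs did. The mean was 0.34 ± 0.14 (SE, n = 3; 1.27-fold) with an interval from -0.051 to 0.74, and limma's adjusted p was 0.923. Its 3 probes gave means of 0.25, 0.45 and 0.33, and each of them was highest in pair 2 and lowest in pair 1. Without pair 2 the mean was 0.18 and without pair 1 it was 0.50.

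The other T-type gene with a probe, Cacna1h (CaV3.2), lies outside the set and had -0.41, 0.26 and -0.068 in the 3 pairs. In pair 3 its dye-exchanged arrays took opposite signs, at 0.23 and -0.37, so the sign of that pair is not settled.

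The L-type genes were close to 0 in the mean. Cacna1c, the CaV1.2 channel of smooth muscle, was read by 6 probes and had -0.052, 0.089 and -0.053 in pairs 1, 2 and 3, a mean of -0.0053 ± 0.051 (SE, n = 3). Its interval ran from -0.15 to 0.14, and its 6 probes gave means from -0.065 to 0.034. The probe that varied most between pairs had -0.074, 0.34 and -0.17. Cacna1d, the CaV1.3 channel of pacemaker and endocrine cells, had -0.016, 0.37 and 0.053, so pair 2 alone lay clearly above 0, and its mean was 0.14 ± 0.095. Cacna1f, known from photoreceptors, lay between -0.025 and 0.011.

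The neuronal pore-forming genes Cacna1a, Cacna1b and Cacna1e, of the P/Q-, N- and R-type channels that release transmitter, had means of 0.0083, -0.024 and 0.044. No pair mean of the 3 genes was above 0.11 or below -0.10. The 13 enteric neuron markers had medians of -0.42, 0.085 and 0.22 in pairs 1, 2 and 3.

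Auxiliary subunits, which bring the pore to the membrane and tune its gating, likewise lay near 0. Of the beta subunits, Cacnb1 had a mean of -0.013, Cacnb2 -0.081 and Cacnb4 0.036. Cacnb2, the main beta subunit of heart, had -0.018, -0.20 and -0.027 in the 3 pairs. Cacnb4 was at 0.29 in pair 1, against -0.12 and -0.065 in pairs 2 and 3, but the arrays of pair 1 themselves gave 0.032 and 0.55.

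Of the alpha2delta subunits, Cacna2d1, the target of gabapentin and a partner of CaV1.2, had -0.19, -0.020 and -0.025, with a mean of -0.079 ± 0.056 (SE, n = 3). The value of pair 1 came from its array with the mutant in Cy5, at -0.41, while the exchanged array gave 0.026. Cacna2d2 had a mean of 0.097 and Cacna2d3 one of -0.070. The 8 gamma genes ranged from -0.047 for Cacng1, the subunit of the skeletal muscle channel, to 0.060 for Cacng6. They include Cacng2 (stargazin) and its relatives, which traffic AMPA-type glutamate receptors, and 4 were above 0 and 4 below.

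The SERCA pumps refill the endoplasmic reticulum, and the 3 measured members all had means above 0. Atp2a3, the SERCA3 pump of blood, endothelial and epithelial cells, had 0.25 and 0.31 on the exchanged arrays of pair 1, 0.69 and 0.45 on those of pair 2, and 0.26 and 0.37 on those of pair 3. It was thus above 0 on 6 of 6 arrays. The mean was 0.39 ± 0.077 (SE, n = 3; 1.31-fold), with an interval from 0.17 to 0.61 and an adjusted p of 0.923 in limma over all features. Leaving out pairs 1, 2 and 3 in turn gave 0.44, 0.30 and 0.43.

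The probes of Atp2a3 disagreed in size and in the order of the pairs. One had 0.21, 0.97 and 0.50 in pairs 1, 2 and 3, and the other 0.35, 0.17 and 0.14. Both were above 0 in every pair. The medians of 8 endothelial markers were -0.56, -0.038 and -0.014, those of 6 leukocyte markers -0.75, 0.54 and 0.59, and those of 9 gastric epithelial markers 0.25, 0.053 and -0.46. Those of 9 interstitial cell of Cajal markers, a list that includes Kit, were 0.20, 1.89 and 0.86. The part of any of these cells in the value of Atp2a3 was not tested.

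Atp2a2, the SERCA2 pump of smooth and heart muscle and of most other cells, had -0.22 and -0.21 on the exchanged arrays of pair 1, 0.36 and 0.44 on those of pair 2 and 0.13 and 0.25 on those of pair 3. Its 2 probes gave closely similar values, with means of 0.14 and 0.11. Pairs differed in sign, and the mean was 0.13 ± 0.14 (SE, n = 3), or -0.011 without pair 2. Atp2a1, the pump of fast skeletal muscle, had a mean of 0.022. The 7 skeletal muscle markers had medians of -0.029, -0.0030 and -0.16.

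**Figure D2:**
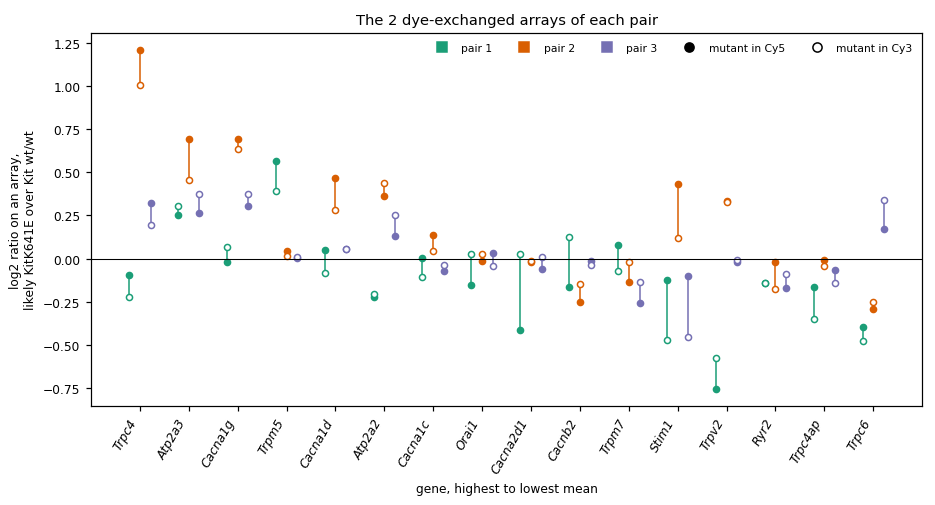
Log2 ratios, likely KitK641E over Kit wt/wt, on each of the 6 arrays for the 16 genes described in full, ordered by their mean. Filled points have the mutant in Cy5, open points in Cy3, and a line joins the 2 arrays of a pair. For Trpc4 (-0.22 to 1.21) and Trpv2 (-0.75 to 0.33) the pairs lie far apart and the 2 arrays of a pair close together, whereas Cacna2d1 has 1 array at -0.41 and its other arrays near 0.

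Release channels of the stores lay near 0, with Ryr1 above it and Ryr2 and Itpr2 below it in the mean. Ryr2, the ryanodine receptor of heart that smooth muscle also expresses, had -0.14, -0.097 and -0.13 in pairs 1, 2 and 3, below 0 on all 6 arrays. Its mean was -0.12 ± 0.039 (SE, n = 3; adjusted p 0.923 in limma). One of its 2 probes was below 0 in every pair, with -0.27, -0.23 and -0.25, while the other had -0.0070, 0.040 and -0.0070. Taken as a feature of its own, the first had a limma adjusted p of 0.915. The unadjusted p of the gene, 0.037 in limma, was 0.13, 0.087 and 0.14 without pair 1, 2 or 3.

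Ryr1, the receptor of skeletal muscle, had -0.100, 0.12 and 0.12, and its 3 probes gave means from -0.033 to 0.095. Itpr2, an inositol trisphosphate receptor whose relative Itpr1 is needed for gastric slow waves in mice, was read by 1 probe and had -0.0090, 0.0090 and -0.19. Its mean was -0.064 ± 0.059. Of the plasma membrane pumps, Atp2b2 and Atp2b3, which are most abundant in neurons, had means of -0.0073 and -0.042.

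Store-operated entry joins Stim1, the calcium sensor of the endoplasmic reticulum, to the Orai pores of the plasma membrane. Stim1 had -0.12 and -0.47 on the exchanged arrays of pair 1, 0.43 and 0.12 on those of pair 2, and -0.10 and -0.45 on those of pair 3. Pair 2 was above 0 and the other pairs below, and on every pair the array with the mutant in Cy5 gave the higher value. The mean was -0.100 ± 0.14 (SE, n = 3), and with the mutant in Cy5 only it was 0.069.

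Orai3 had the same signs as Stim1, with -0.15, 0.20 and -0.24, and a mean of -0.065 ± 0.10. Orai1, the main store-operated pore, had -0.064, 0.0050 and -0.0050, and Orai2 had 0.042, -0.235 and 0.072. The 12 smooth muscle markers had medians of -0.88, 0.36 and -0.65, with 0, 10 and 1 of them above 0 in pairs 1, 2 and 3. Their part in the values of Stim1 and Orai3 was not tested.

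**Figure D3:**
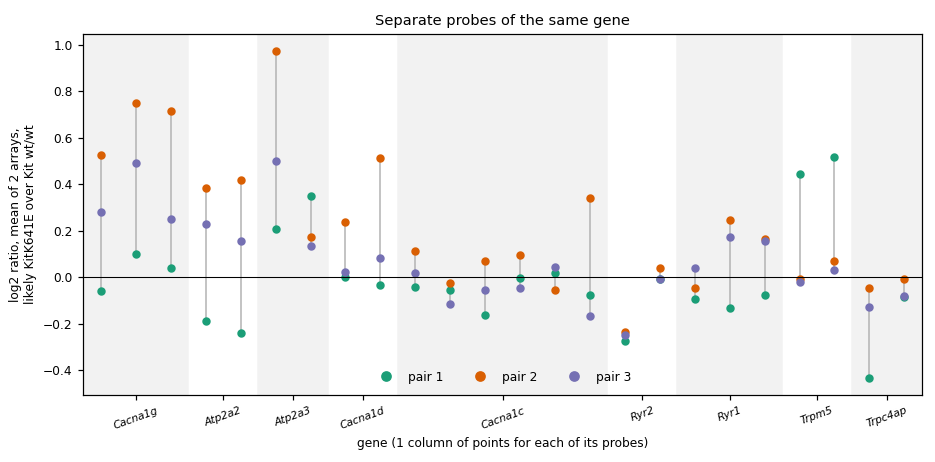
Log2 ratios, likely KitK641E over Kit wt/wt, of the separate probes of 9 genes. Each column of points is 1 probe, and colours mark the pair (mean of 2 arrays). The 3 probes of Cacna1g and the 2 of Atp2a2 order the pairs alike, whereas those of Atp2a3 and Ryr2 do not give the same size.

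Of the TRPC channels, which open downstream of phospholipase C, Trpc4 and Trpc6 differed most between pairs. Both carry the cation current that acetylcholine evokes in mouse intestinal smooth muscle, and TRPC4 is also known from interstitial cells of Cajal. Trpc4 had -0.098 and -0.22 on the exchanged arrays of pair 1, 1.21 and 1.01 on those of pair 2, and 0.32 and 0.19 on those of pair 3. The value of pair 2 was the highest pair mean of any of the 50 genes, and pair 1 lay below 0. The mean was 0.40 ± 0.27 (SE, n = 3; 1.32-fold), with an adjusted p of 0.923 in limma, and it was 0.049 without pair 2 and 0.68 without pair 1.

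Trpc6 ran the other way between pairs 2 and 3. It had -0.40 and -0.48 on the exchanged arrays of pair 1, -0.29 and -0.25 on those of pair 2 and 0.17 and 0.34 on those of pair 3. The mean was -0.15 ± 0.16 (SE, n = 3), the lowest of the 50 genes, and without pair 3 it was -0.36. The signs were opposite to those of Trpc4 in pair 2 and the same in pairs 1 and 3. Each of these genes was read by 1 probe, so no second probe bears on either pattern.

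Trpc1 had a mean of 0.085 ± 0.043, with 0.050, 0.14 and 0.061 in the 3 pairs. Trpc5 and Trpc7 had means of 0.016 and -0.012. Trpc4ap, which binds TRPC4 and serves as a receptor of a ubiquitin ligase, had -0.26, -0.026 and -0.11 and was below 0 on all 6 arrays. Its mean was -0.13 ± 0.062, and its 2 probes gave -0.20 and -0.058.

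In the 3 pairs in the same order, Cacna1g had 0.026, 0.66 and 0.34, Trpc4 had -0.16, 1.11 and 0.26, and the 9 interstitial cell of Cajal markers had medians of 0.20, 1.89 and 0.86. For all of these pair 2 was highest and pair 1 lowest, as it was for the gene means of Atp2a3, Atp2a2 and Cacna1d. A probe of Atp2a3 did not share this order, with 0.35, 0.17 and 0.14 in pairs 1, 2 and 3. This order was seen in 19 of the 50 genes and in 20.5% of all features. It also held for the medians of the liver markers given above and of the smooth muscle markers (-0.88, 0.36 and -0.65). The fibroblast marker medians shared it too (-0.24, -0.049 and -0.18). The order was picked out after the values were seen, and the part of interstitial or any other cells in it was not tested. The 9 markers include Kit, the mutated gene, whose own value of 1.89 was the median of the list in pair 2. Of those 9 markers, 7 were above 0 in the mean, while the chloride channel gene Ano1 had -0.068, -0.17 and -0.082.

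**Figure D4:**
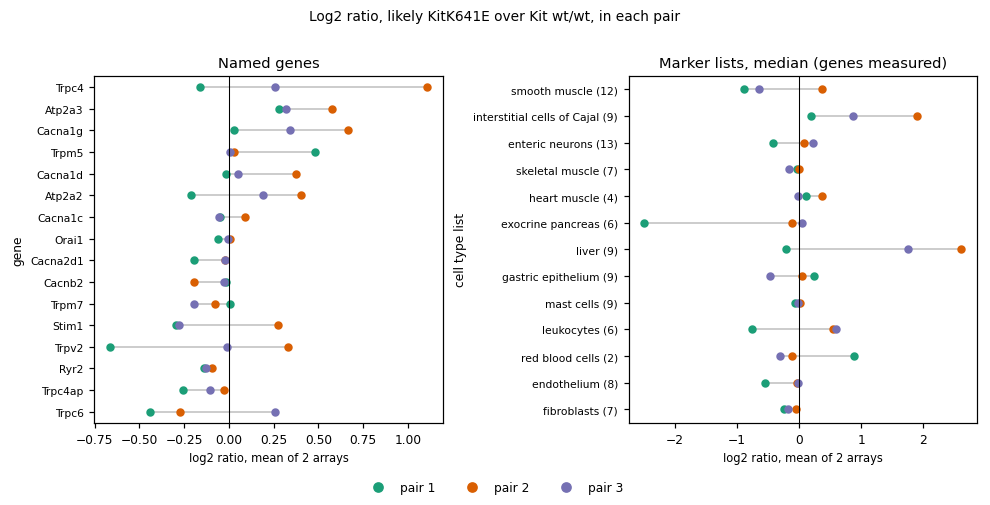
Left, pair means of the log2 ratio, likely KitK641E over Kit wt/wt, for the 16 genes described in full. Right, pair medians over lists of cell type markers with the number of genes measured, on a wider axis. Pair 1 has medians of -2.49 for exocrine pancreas and -0.88 for smooth muscle, and pairs 2 and 3 have 2.61 and 1.75 for liver.

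Of the TRPV channels, Trpv2 differed most between pairs. It encodes a stretch- and lipid-sensitive channel known from macrophages, muscle and enteric neurons. It had -0.75 and -0.57 on the exchanged arrays of pair 1, 0.33 and 0.33 on those of pair 2, and -0.018 and -0.0070 on those of pair 3. The arrays of a pair gave similar values, while the pairs took both signs, and the mean was -0.12 ± 0.21 (SE, n = 3). Without pair 1 it was 0.16. In the same pairs the leukocyte markers had medians of -0.75, 0.54 and 0.59, and 0, 6 and 6 of the 6 were above 0. The smooth muscle markers had medians of -0.88, 0.36 and -0.65, and the enteric neuron markers -0.42, 0.085 and 0.22. The part of any of these cells in the values of Trpv2 was not tested.

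The other TRPV genes were near 0 in the mean. Trpv3, of keratinocytes, had 0.015, Trpv4, an osmotically sensitive channel, -0.0093, and Trpv6, the calcium uptake channel of intestinal epithelium, -0.094 ± 0.052.

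Among the TRPM channels, Trpm5 was clearly above 0 in pair 1 and close to 0 in pairs 2 and 3. Trpm5 is opened by intracellular calcium and serves taste cells and the chemosensory tuft cells of the gut epithelium. It had 0.57 and 0.39 on the exchanged arrays of pair 1, 0.043 and 0.017 on those of pair 2, and 0.002 and 0.007 on those of pair 3. The mean was 0.17 ± 0.12 (SE, n = 3) and was 0.017 without pair 1. Both probes showed it, with 0.44 and 0.515 in pair 1. In that pair 8 of the 9 gastric epithelial markers were above 0, with a median of 0.25, against 0.053 and -0.46 in pairs 2 and 3. The 2 red blood cell markers had medians of 0.88, -0.12 and -0.31 in pairs 1, 2 and 3. The part of these cells in the values of Trpm5 was not tested.

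Trpm4, the other calcium-activated channel of this family, also had its highest value in pair 1, with 0.23, 0.034 and 0.062. Trpm7, a channel fused to a kinase that has been proposed to act in pacemaker cells, had 0.0040, -0.078 and -0.20, and its mean was -0.090 ± 0.057 (SE, n = 3). Trpm6, its relative for magnesium uptake, had -0.048, Trpm2 0.034, Trpm3 0.021 and Trpm8, the cold and menthol receptor, 0.093.

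Signs were also counted over arrays. Above 0 on all 6 arrays were 2 genes, Atp2a3 and Trpm5, against 3.87% of all features. Below 0 on all 6 were 3 genes, Ryr2, Trpc4ap and Atp2b3, against 3.45%. Some of the signs counted belong to values very close to 0, such as 0.002 and 0.007 for Trpm5 and -0.001 for Atp2b3 in pair 3. The range over pairs exceeded the largest difference between dye-exchanged arrays for 24 of the 50 genes, against 45.8% of all features. The median SD over pairs was 0.087 for the 50 genes and 0.097 for all features.

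Other genes of calcium handling, taken from 4 lists of 92 measured genes, gave no call in limma over all features. Of them, 47 were above 0 and 45 below, with a median of 0.0017, and 5 were higher and 6 lower at an unadjusted 0.05, where 2.74% of all features were higher and 2.16% lower. In the list of store and cytosol buffers (24 genes, median 0.027), Pln had -1.58, -0.12 and -1.02 in the 3 pairs, a mean of -0.91 ± 0.31 (SE, n = 3; adjusted p 0.923 in limma). Pln encodes phospholamban, the inhibitor of SERCA2 in heart and smooth muscle. In the same pairs the smooth muscle medians were -0.88, 0.36 and -0.65. Also in that list Calb2, the calretinin of enteric neurons, had a mean of -0.25 ± 0.085, and Rcn1, a calcium-binding protein of the endoplasmic reticulum, 0.25 ± 0.051.

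Among calmodulin, its kinases and calcineurin (21 genes, median 0.0018), Calm3, a calmodulin gene, had 0.27 ± 0.072 (SE, n = 3). The calcineurin regulators Rcan1 and Rcan2 had -0.21 ± 0.057 and -0.26 ± 0.063. The 17 phospholipases and adaptors had a median of -0.015. Mrvi1, which couples cyclic GMP to the inositol trisphosphate receptor in smooth muscle, had 0.28 ± 0.11 there, Homer3, a scaffold, 0.073 ± 0.045, and Itpka, an inositol trisphosphate kinase, -0.20 ± 0.10. Among 30 exchangers and other calcium-permeable channels (median -0.0092), Slc24a5, a potassium-dependent exchanger of pigment cells, had 0.30 ± 0.050, Mcoln3, a lysosomal channel, 0.14 ± 0.042, and P2rx6, a subunit of ATP-gated channels, -0.15 ± 0.047. Each of these 12 named genes had an adjusted p of 0.923.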

How the data were processed

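The deposited table holds 1 value per probe and array (38467 probes, 6 arrays, 0 missing). Its values are read as log2 ratios of the 2 channels, centred by the authors, since the array medians lie between -0.003 and 0.004. Base 2 is inferred, because the largest size, 5.831, is above 4.8165, the limit of log10 ratios for scans (maximum 65535). A natural logarithm was not tested. For scanner, background correction and normalization the sources used here give nothing. Gene symbols came from GEO's platform annotation and cover 59.6% of probes. RefSeq (GRCm38.p6) changed 0 symbols of the set.

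Arrays with the mutant in Cy3 were turned in sign, since deposited values correlated across probes between the dye-exchanged arrays of a pair, at -0.61, -0.74 and -0.83 in pairs 1, 2 and 3. Probes were averaged per gene, arrays per pair, and the 3 pair means tested against 0 with limma (R 4.3.3, limma 3.58.1), two-sided, over 30649 features with Benjamini-Hochberg adjustment at 0.05. SE and intervals are limma's moderated values (2 residual and 1.80 prior degrees of freedom). The script was tested on simulated data. The p-values test the mean of 3 littermate pairs against limma's moderated SE, and the number of pairs limits the precision.

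The members and lists were chosen with earlier results of these data known. Values in every pair are given for the 4 highest and 4 lowest means, the 4 largest SDs, unadjusted p under 0.05 and genes with known roles in gut muscle or pacemaker cells, 16 genes in all, and up to 3 genes a pathway list by lowest p. Alternatives were other centring, scaling and probe summaries, 1 dye orientation, named genes only, robust moderation, a random pair block and leaving out each pair.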

Additional observations from a re-analysis of the deposited data

Results flagged for a closer look

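Each of the 50 genes was examined for 1 array far from the other 5, and such an array was found for 4 genes. Chance alone picks out about 1 in 20 sets of unrelated values, whereas dye-exchanged arrays share their RNA. The share of all features with such an array was not computed, so the count of 4 has no background to be read against. Cacna2d1 had -0.412 on the array of pair 1 with the mutant in Cy5, where the others lay between -0.061 and 0.026. On the array of pair 1 with the mutant in Cy3, Cacnb4 had 0.549 (others -0.172 to 0.032) and Cacng7 -0.215 (others 0.012 to 0.051). Atp2b3 had -0.131 on the array of pair 3 with the mutant in Cy3 (others -0.048 to -0.001).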

How the results depend on the processing

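No gene of the set passed an adjusted p of 0.05 in any of the 13 alternatives. The lowest adjusted p of a member ran from 0.128, for Atp2a3 with the pair as a random block over 6 arrays, to 0.9999 without pair 3. The median over members was -0.0052. It was 0.011 with the mutant in Cy5 only and 0.0068 with each probe on its own, and -0.0049 to 0.0030 when a pair was left out. Over all features, 2 were higher and 0 lower. The count higher was 0 with arrays at a common median absolute deviation, 1 when quantile normalized, 0 with the mutant in Cy5 only, 1 with the mutant in Cy3 only and 0 with each probe on its own. It was 0 without any 1 pair. The random block called 44 higher and 17 lower. That fit takes 6 arrays as observations and 1 correlation, 0.331, between the arrays of a pair for every feature. It can thus overstate the precision where those arrays are close and the pairs differ, as for Trpc4 and Trpv2. With each probe on its own, a gene with several probes entered the comparison of signs by the probe with the lowest limma p. Probes of opposite sign to the gene mean, such as a Ryr2 probe at 0.0087 and a Cacna1c probe at 0.0335, thus went uncounted. Of 208 values of the 16 genes described in full, 9 changed sign. These were Cacna1c with the median over probes (0.00075), in the Cy5 orientation alone (0.023) and without pair 1 (0.018) or 3 (0.019), against -0.053 without pair 2, Stim1 with the mutant in Cy5 only (0.069), Cacna2d1 and Orai1 with the mutant in Cy3 only (0.0063 and 0.0030), Trpv2 without pair 1 (0.16, against -0.34 without pair 2) and Atp2a2 without pair 2 (-0.011, against 0.30 without pair 1). The cause was not tested, and fits on 2 pairs have less precision by construction. Signal over background was not used here, so probes near background could not be left out.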
